A study of Mus musculus with 9 samples.

Results

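The cholesterol synthesis and SREBP2 target genes described here are 8 genes, Hmgcs1, Idi1, Fdft1, Sqle, Lss, Cyp51, Srebf2 and Insig1, of 48526 in the count and RPKM tables, matched by gene name. They were chosen by their RPKM and fold changes in these same 9 libraries, so that their levels and fold changes in each of the 3 comparisons are given as a description and support nothing. Each of the 8 had 1 row and passed the filter on low counts. Poly(A) RNA was measured in the murine microglial cell line BV-2 in 3 libraries per group, numbered 4, 5 and 6. High primed (HP) cells had received 100 ng/ml LPS and ultra-low primed (ULP) cells 1 fg/ml LPS as the priming dose, while unprimed (UP) cells had received none, and cells of all 3 groups were restimulated on day 6 with 100 ng/ml LPS. BV-2 is an immortalised line. Separate cultures are not named for the libraries in any source, and the p-values rest on a spread that may be technical only. A separate dose field of the labels gives the ULP and HP priming doses the other way round from the titles, and the titles, which match the paper, were followed.

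Cholesterol is built from acetyl-CoA through mevalonate, farnesyl diphosphate, squalene and lanosterol by enzymes of the cytosol and the endoplasmic reticulum. When sterols are scarce, SCAP carries the membrane-bound factor SREBP2, the product of Srebf2, to the Golgi, where it is cut by the proteases S1P and S2P, enters the nucleus and drives the genes of this pathway and its own gene. INSIG proteins hold SCAP in the endoplasmic reticulum when sterols are plentiful, and Insig1 is itself a SREBP target. In macrophages and microglia, LPS and interferons are known to alter sterol synthesis and the formation of oxysterols.

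SREBP2 binds sterol regulatory elements close to the start of its targets, often beside a CCAAT box bound by NF-Y. The 250 bases before the annotated start are shown for Hmgcs1 and Idi1, which followed one course over the libraries, and for Cyp51 and Srebf2, which followed another. The stretches are from RefSeq (GRCm38.p6), in the direction of transcription, and the capitals mark TCACNNCA, a loose form of the sterol regulatory element chosen after these sequences were seen, and CCAAT, each on either strand (ATTGG is CCAAT on the other strand).
Hmgcs1 (chr13:119690101-119690350, plus strand): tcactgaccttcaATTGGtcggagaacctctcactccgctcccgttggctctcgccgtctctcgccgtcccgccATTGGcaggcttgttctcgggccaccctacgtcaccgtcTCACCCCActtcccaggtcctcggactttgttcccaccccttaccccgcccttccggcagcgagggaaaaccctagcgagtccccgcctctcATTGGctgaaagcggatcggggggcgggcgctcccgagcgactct
Idi1 (chr13:8885356-8885605, plus strand): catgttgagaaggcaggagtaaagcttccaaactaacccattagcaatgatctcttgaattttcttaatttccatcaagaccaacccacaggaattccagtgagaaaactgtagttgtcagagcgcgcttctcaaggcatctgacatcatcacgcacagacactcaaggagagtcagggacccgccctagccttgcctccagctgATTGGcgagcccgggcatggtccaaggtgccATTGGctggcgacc
Cyp51 (chr5:4104698-4104947, minus strand): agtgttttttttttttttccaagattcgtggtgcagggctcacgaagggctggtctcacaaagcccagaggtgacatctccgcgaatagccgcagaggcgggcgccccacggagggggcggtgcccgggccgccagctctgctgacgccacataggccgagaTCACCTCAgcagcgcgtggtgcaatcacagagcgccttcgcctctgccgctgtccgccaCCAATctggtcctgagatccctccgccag
Srebf2 (chr15:82147019-82147268, plus strand): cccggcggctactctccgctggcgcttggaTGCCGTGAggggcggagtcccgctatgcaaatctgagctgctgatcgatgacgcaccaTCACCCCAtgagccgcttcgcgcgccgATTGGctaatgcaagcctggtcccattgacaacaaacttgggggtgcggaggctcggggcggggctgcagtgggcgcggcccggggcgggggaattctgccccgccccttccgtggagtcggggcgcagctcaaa

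The narrower form TCACNCCA was found in Hmgcs1 at positions -137 to -130 and in Srebf2 at -162 to -155 before the start, and in 3.67% of all 32851 windows of this length. TCACNNCA was in addition present in Cyp51 at -88 to -81 and on the other strand in Srebf2 at -220 to -213, and in 11.4% of all windows, and neither form was found in the Idi1 window. A CCAAT box was present in each of the 6 members with an entry in the sequence table and in 33.8% of all windows, and it did not overlap the other motif in the 4 stretches shown. Of the 16 genes of the whole synthesis pathway with an entry, 15 held a CCAAT box and 7 the form TCACNNCA. Sqle and Fdft1 have no entry. A match is a description of letters, not a binding site.

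Each library held 24189203 to 27802244 counts. Levels are given as RPKM, reads scaled by the authors to gene length and library total. Of the microglial markers, 9 of 11 reached a mean of 1 RPKM, with Cx3cr1 and P2ry12, markers of resting microglia, near 0, and their summed RPKM was 841 to 1059 in HP, 923 to 1162 in ULP and 1103 to 1272 in UP libraries. None of the 17 markers of astrocytes, oligodendrocytes, neurons and fibroblasts reached a mean of 1 RPKM. The astrocyte marker Aldh1l1 came near it (mean 0.903), at 0.534 to 0.728 RPKM in HP, 0.798 to 1.17 in ULP and 1.00 to 1.31 in UP libraries. The libraries did not sort by group alone: on a first principal component with 79.1% of the variance, HP 4 (57.54), HP 5 (75.51), ULP 5 (44.03) and ULP 6 (52.24) stood apart from HP 6 (-20.37), ULP 4 (-39.19) and the 3 UP libraries (-46.43, -50.28 and -73.04). The nuclear RNA Malat1 moved with it, at 45.6, 96.7 and 5.16 RPKM in HP, 4.81, 35.0 and 30.2 RPKM in ULP and 3.14, 2.83 and 2.17 RPKM in UP libraries. ULP 4 correlated best with UP 4 (r = 0.996 across genes) and HP 6 with ULP 4 (r = 0.991), and results that rest on these libraries are given with and without them. In such bulk RNA, fewer cells of a kind and less RNA per cell cannot be told apart.

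In HP compared with ULP cells, 7 of the 8 genes had lower values. Lower values were not limited to the later steps of the pathway. The 8 mevalonate steps had a median log2 fold change of -0.32 (7 negative). The 12 tested squalene and sterol steps had one of -0.28 (12 negative). Fdft1, Sqle, Lss and Cyp51 had log2 fold changes of -0.40 to -0.28, that is 0.76 to 0.82 times the ULP level, and Srebf2 and Insig1 had -0.33 and -0.22, whereas Hmgcs1 (-0.11) and Idi1 (0.21) were spread too widely within the groups to be ordered. Compared with UP cells, Hmgcs1 and Idi1 had higher and Fdft1, Sqle, Lss and Cyp51 lower values in HP cells. The values of Hmgcs1 and Idi1 were much smaller once GC content was corrected for. None of the 8 genes passed the test in any comparison (edgeR's quasi-likelihood test, Benjamini-Hochberg adjusted p under 0.05 over 14702 genes), where 0.170% of all genes passed in HP over ULP, 0.524% in HP over UP and 0% in ULP over UP. At an unadjusted p under 0.05, 4 of the 8 were lower and 0 higher in HP over ULP, 5 lower and 2 higher in HP over UP, and 1 lower and 3 higher in ULP over UP, against 341 lower and 238 higher, 2445 lower and 3575 higher, and 1440 lower and 2550 higher of all genes. DESeq2 called 0, 5 and 0 of the 8, where it called 0.714%, 24.8% and 7.13% of all genes. With limma, 0, 0 and 0 were called. Its shares of all genes were 0.170%, 0.313% and 0% on log2(RPKM + 0.1) and 0.0680%, 0.258% and 0% on log2(RPKM + 1). The 3 comparisons share libraries, so that their values are not independent of each other.

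**Figure D1:**
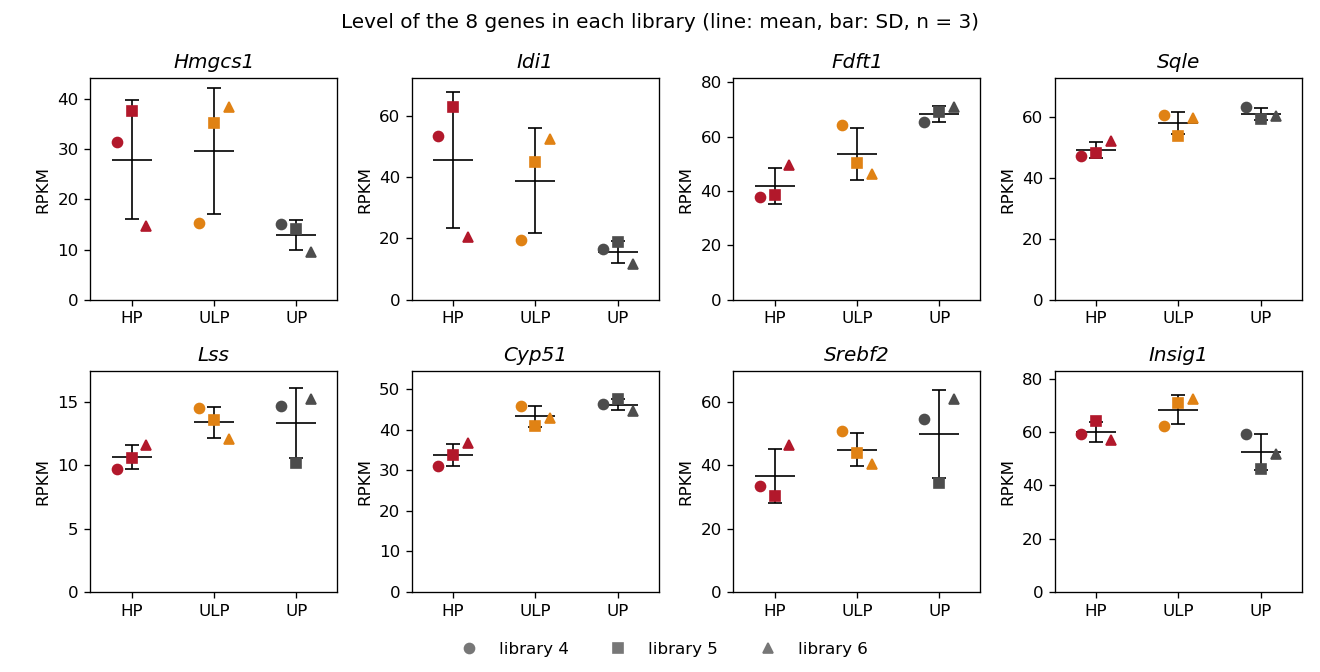
RPKM (reads scaled to gene length in kilobases and to library total) of the 8 genes, 1 panel each, in the HP, ULP and UP libraries. Symbols are libraries 4, 5 and 6, horizontal lines the means and bars the SD (n = 3). Hmgcs1 and Idi1 were low in HP 6 and ULP 4, while Sqle, Lss and Cyp51 were lower in each HP library than in every ULP library.

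Hmgcs1 encodes cytosolic HMG-CoA synthase, the enzyme that forms HMG-CoA. It was at 31.4, 37.7 and 14.8 RPKM in HP libraries 4, 5 and 6, at 15.3, 35.3 and 38.4 RPKM in the ULP libraries and at 15.2, 14.1 and 9.47 RPKM in the UP libraries. HP 4, HP 5, ULP 5 and ULP 6 were the high libraries, and HP 6 and ULP 4 lay beside UP 4, so that the HP and ULP ranges overlapped almost in full. The means were 27.9 ± 11.8 RPKM in HP, 29.7 ± 12.6 in ULP and 12.9 ± 3.04 in UP cells (SD, n = 3 each). The log2 fold change was -0.11 ± 0.39 (SE) in HP over ULP (edgeR adjusted p = 1.00), 0.99 ± 0.40 in HP over UP (adjusted p = 0.0973) and 1.10 ± 0.40 in ULP over UP (adjusted p = 0.169). With a replicate block and an offset for GC content it was 0.16 in HP over UP and 0.40 in ULP over UP, against 0.95 and 1.12 with the block alone, and with offsets for GC content and gene length, chosen after seeing the data, 0.02 and 0.28.

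Idi1, the isomerase that turns isopentenyl into dimethylallyl diphosphate, took the same course with a wider span. Its level was 53.3, 62.8 and 20.5 RPKM in HP, 19.4, 45.0 and 52.3 RPKM in ULP and 16.4, 18.7 and 11.6 RPKM in UP libraries. The highest library, HP 5, was 5.41-fold above the lowest, UP 6, the widest span of the 8 genes, and all 3 HP libraries were above the UP libraries in RPKM. The log2 fold change was 0.21 ± 0.43 (SE) in HP over ULP (adjusted p = 1.00), 1.42 ± 0.44 in HP over UP (adjusted p = 0.0642) and 1.22 ± 0.44 in ULP over UP (adjusted p = 0.169). With the replicate block and the GC offset it was 0.42 in HP over UP and 0.40 in ULP over UP, against 1.39 and 1.26 with the block alone, and with offsets for GC content and gene length 0.25 and 0.24.

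Fdft1 encodes squalene synthase, which commits farnesyl diphosphate to sterols, and it ran the other way. It was at 37.7, 38.6 and 49.6 RPKM in HP libraries, 64.2, 50.3 and 46.2 RPKM in ULP libraries and 65.2, 69.0 and 70.8 RPKM in UP libraries. Every HP and every ULP library was below every UP library, while HP 6 and ULP 6 overlapped, and the order of the means was 42.0 ± 6.62 RPKM in HP, 53.6 ± 9.46 in ULP and 68.3 ± 2.86 in UP cells (SD, n = 3 each). The log2 fold change was -0.40 ± 0.17 (SE) in HP over ULP (adjusted p = 1.00), -0.83 ± 0.17 in HP over UP (adjusted p = 0.0606) and -0.43 ± 0.17 in ULP over UP (adjusted p = 0.175). Fdft1 shares 774 bases with Ctsb, a lysosomal protease gene at 526 to 809 RPKM, and no source says whether strand was used in counting. Ctsb had log2 fold changes of -0.25 in HP over ULP, -0.56 in HP over UP and -0.31 in ULP over UP, and its part in the Fdft1 values was not tested.

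Sqle, the monooxygenase that opens the oxygen-dependent part of the pathway, was at 47.2, 48.1 and 52.0 RPKM in HP, 60.7, 53.9 and 59.6 RPKM in ULP and 63.2, 59.2 and 60.4 RPKM in UP libraries. The HP libraries were the 3 lowest, and the ULP and UP libraries overlapped in RPKM. This was the narrowest span of the 8 genes, with 1.34-fold between the highest and the lowest library, and the log2 fold change was -0.28 ± 0.11 (SE) in HP over ULP (adjusted p = 1.00), -0.43 ± 0.11 in HP over UP (adjusted p = 0.0606) and -0.15 ± 0.11 in ULP over UP (adjusted p = 0.340).

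Cyp51, the sterol 14-demethylase, separated the HP cells in the same way. HP libraries were at 31.2, 33.7 and 36.7 RPKM, ULP libraries at 46.0, 40.9 and 43.0 RPKM and UP libraries at 46.5, 47.5 and 44.7 RPKM. All HP libraries were below all others, and ULP 4 exceeded UP 6, so that the ULP and UP groups overlapped. Of the 8 genes it had the smallest adjusted p in HP over ULP, 0.561, at a log2 fold change of -0.39 ± 0.11 (SE), and the change was -0.57 ± 0.11 in HP over UP (adjusted p = 0.0606) and -0.18 ± 0.11 in ULP over UP (adjusted p = 0.304).

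Lss, lanosterol synthase, closes the rings of the sterol skeleton. It was at 9.70, 10.6 and 11.6 RPKM in HP, 14.5, 13.6 and 12.1 RPKM in ULP and 14.7, 10.2 and 15.2 RPKM in UP libraries. The HP libraries were below the ULP libraries and HP 4 was also below UP 5, whereas HP 5 and HP 6 were above it. UP 5 stood far under UP 4 and UP 6. The log2 fold change was -0.37 ± 0.16 (SE) in HP over ULP (adjusted p = 1.00), -0.45 ± 0.16 in HP over UP (adjusted p = 0.0791) and -0.08 ± 0.16 in ULP over UP (adjusted p = 0.763). Lss overlaps the long non-coding RNA gene 4930483K19Rik.

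Srebf2 encodes SREBP2 itself. It was at 33.4, 30.2 and 46.3 RPKM in HP, 50.6, 43.7 and 40.3 RPKM in ULP and 54.6, 34.2 and 60.7 RPKM in UP libraries. HP 4 and HP 5 were below all ULP libraries, HP 6 was within the ULP range, and UP 5 was low as for Lss. The means were 36.6 ± 8.51 RPKM in HP, 44.9 ± 5.27 in ULP and 49.8 ± 13.8 in UP cells (SD, n = 3 each), and neighbouring groups in this order overlapped. The log2 fold change was -0.33 ± 0.23 (SE) in HP over ULP (adjusted p = 1.00), -0.56 ± 0.23 in HP over UP (adjusted p = 0.105) and -0.23 ± 0.23 in ULP over UP (adjusted p = 0.508). The gene also holds Mir33, a microRNA that restrains cholesterol export and that was not measured here.

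Insig1, the sterol-regulated brake on SCAP, was highest in ULP cells. It was at 59.4, 64.3 and 56.9 RPKM in HP, 62.3, 70.8 and 72.3 RPKM in ULP and 59.5, 46.0 and 51.9 RPKM in UP libraries. Each ULP library was above each UP library, while HP and ULP as well as HP and UP overlapped in RPKM. The log2 fold change was -0.22 ± 0.11 (SE) in HP over ULP (adjusted p = 1.00), 0.08 ± 0.11 in HP over UP (adjusted p = 0.606) and 0.30 ± 0.11 in ULP over UP (adjusted p = 0.169). The lncRNA gene Gm35223 covers the whole of Insig1.

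Overlap between groups was counted on CPM (counts scaled to library total) with TMM factors, which correct for library composition. In HP over ULP, Sqle, Lss, Cyp51 and Insig1 had all 3 HP libraries below all 3 ULP libraries and 0 of the 8 genes had them above, against 5.16% of all genes below and 4.48% above. In HP over UP, Fdft1, Sqle and Cyp51 were below without overlap and 0 above, against 20.9% and 21.9% of all genes. In ULP over UP, Fdft1 and Sqle were below and Hmgcs1 and Insig1 above, against 13.5% and 14.8%. RPKM and scaled CPM differed on overlap for Idi1 in both comparisons with UP, for Sqle in ULP over UP and for Insig1 in HP over ULP. As these contrasts chose the genes, nothing is read from the counts.

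Hmgcs1 and Idi1 rose along the library axis, and the later enzymes fell along it. The summed RPKM of Hmgcs1 and Idi1 was 84.7, 100 and 35.3 in HP, 34.7, 80.3 and 90.7 in ULP and 31.6, 32.8 and 21.1 in UP libraries, so that HP 6 and ULP 4 were close to the UP libraries, as for Malat1. The summed RPKM of Fdft1, Sqle, Lss and Cyp51 was 126, 131 and 150 in HP, 185, 159 and 161 in ULP and 190, 186 and 191 in UP libraries. Here each HP library was below each ULP library. Each ULP library was also below each UP library, but only just, with 185 in ULP 4 and 186 in UP 5. Of the 4 genes, only Fdft1 had every ULP library below every UP library in RPKM. As these contrasts chose the genes, nothing is read from this order. Within the HP and the ULP group, the sum was highest in HP 6 and in ULP 4. Across the 9 libraries, the log2 CPM of Idi1 and Hmgcs1 correlated with the first principal component at r = 0.99 and 0.96, that of Insig1 at r = 0.56, and those of Fdft1, Cyp51, Sqle, Srebf2 and Lss at r = -0.93, -0.78, -0.81, -0.80 and -0.68. These are descriptions over libraries that share the priming groups with the component. The part of nuclear RNA content in the levels of these genes was not tested. The mitochondrially encoded share of counts, 4.22, 4.48 and 3.10% in HP, 4.17, 4.00 and 3.90% in ULP and 3.47, 2.70 and 3.55% in UP libraries, overlapped between HP and ULP cells.

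**Figure D2:**
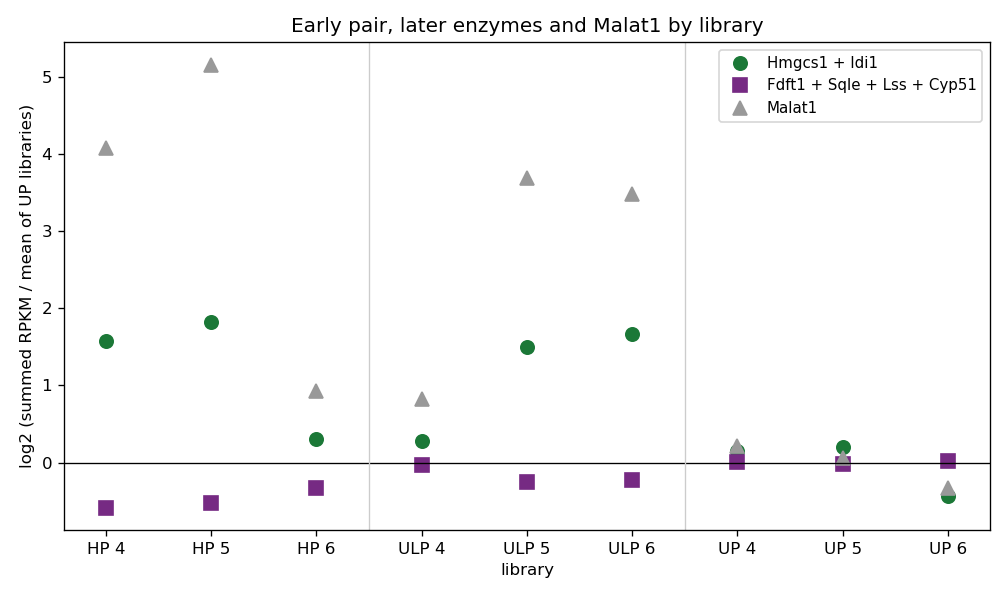
Summed RPKM of Hmgcs1 and Idi1 (green circles), of Fdft1, Sqle, Lss and Cyp51 (purple squares) and RPKM of the nuclear RNA Malat1 (grey triangles) in each HP, ULP and UP library, as log2 of the ratio to the mean of the 3 UP libraries. Hmgcs1 plus Idi1 and Malat1 were high in HP 4, HP 5, ULP 5 and ULP 6, and the 4 later enzymes were lowest in the 3 HP libraries.

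Libraries on the same side of the axis can be set beside each other, a comparison chosen after their values were seen and given without a test. They were not matched on the first principal component. HP 4 (57.54) and HP 5 (75.51) lay further along it than ULP 5 (44.03) and ULP 6 (52.24). HP 6 (-20.37) likewise lay further along it than ULP 4 (-39.19). The part of this distance in the values that follow was not tested. On scaled CPM, HP 4 and HP 5 were both below ULP 5 and ULP 6 for 6 of the 8 genes and for 18.7% of all genes tested, and HP 6 was below ULP 4 for 8 of the 8 and for 49.3% of all genes. Fdft1, Sqle, Lss, Cyp51, Srebf2 and Insig1 were lower on both sides, and Hmgcs1 and Idi1 only between HP 6 and ULP 4, where their log2 ratios were -0.15 and -0.02. With ULP 4 and HP 6 left out, 7 of the 8 genes had a negative log2 fold change in HP over ULP (median -0.32). Of the 8, 0 were then called, where 0.0536% of all genes were.

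The whole pathway from acetoacetyl-CoA to cholesterol comprised 21 listed genes, of which 20 were tested. In HP over ULP, 19 of the 20 had a negative log2 fold change. Of the 20, 0 were called in either direction by edgeR, DESeq2 or limma, which called at most 0.714% of all genes. At an unadjusted p under 0.05 in edgeR, 8 were lower and 0 higher, against 341 lower and 238 higher of 14702 over all genes. The median was -0.29, against 0.02 over all genes tested, of which 6579 of 14702 were negative. The 14 tested genes outside the 8 all had a negative value (median -0.29, from -0.44 to -0.01), and 12 of them were lower in HP 4 and HP 5 than in ULP 5 and ULP 6 as well as in HP 6 than in ULP 4, against 15.8% of all genes. The libraries set beside each other here were not matched on the first principal component. The 14 genes were listed with earlier results of these data known and measured in the same libraries as the 8. Their counts are therefore a description and no independent support. Summed over the pathway, RPKM was 541, 567 and 561 in HP, 677, 643 and 665 in ULP and 690, 687 and 681 in UP libraries. Each HP library was below each ULP library, and each ULP library below each UP library, the latter narrowly (677 in ULP 4 and 681 in UP 6). The sum includes 6 of the 8 chosen genes.

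Pmvk and Mvd, which phosphorylate and decarboxylate mevalonate derivatives, had the largest negative values of the mevalonate steps in HP over ULP (-0.44 and -0.42), and Mvd and Fdps, the farnesyl diphosphate synthase, in HP over UP (-0.87 and -0.90) and in ULP over UP (-0.45 and -0.57). Hmgcs1 and Idi1 had the opposite sign to Acat2 (-0.60), Mvk (-0.74), Pmvk (-0.84), Mvd (-0.87) and Fdps (-0.90), their neighbours in the mevalonate steps, in HP over UP.

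**Figure D3:**
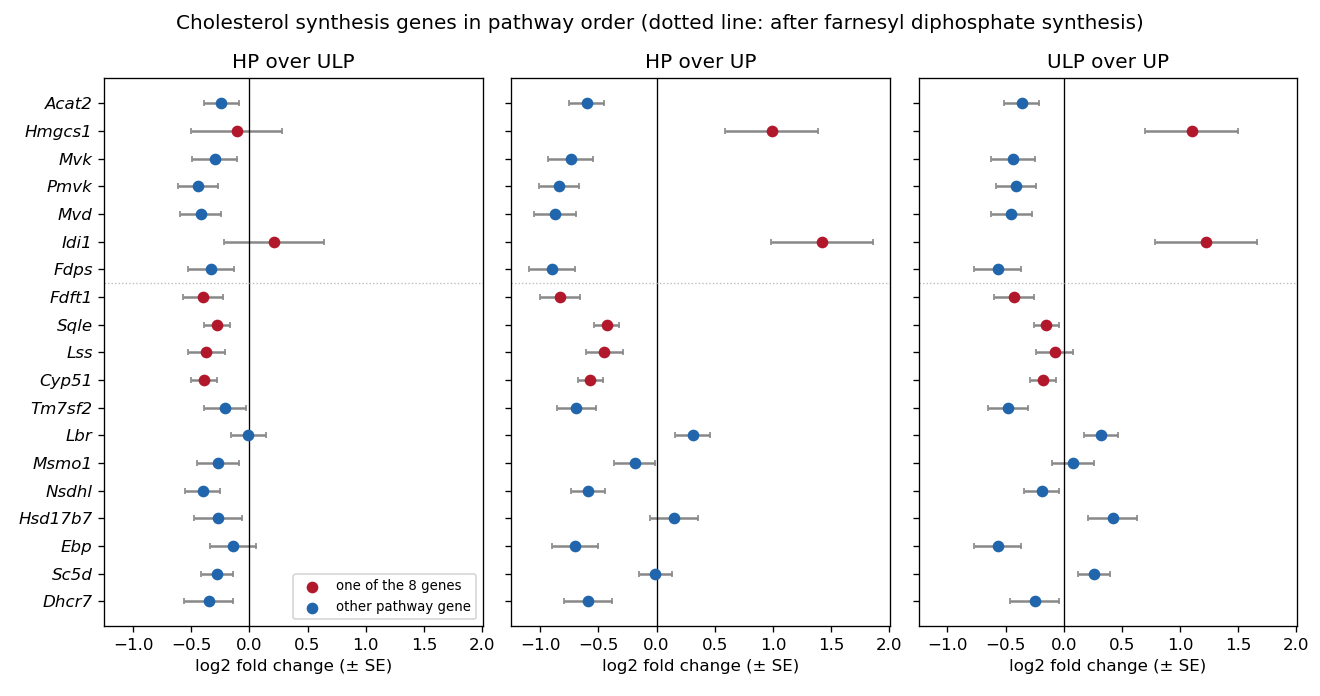
log2 fold change (points) with its SE (bars) of 19 tested cholesterol synthesis genes, in pathway order from top to bottom, for HP over ULP, HP over UP and ULP over UP. Red points are the 6 synthesis enzymes among the 8 genes and blue points 13 others. In HP over ULP, 18 of the 19 lie below 0, and in the comparisons with UP Hmgcs1 and Idi1 lie far to the right of the rest, a distance that shrinks to values of 0.16 and 0.42 in HP over UP and 0.40 and 0.40 in ULP over UP with the replicate block and GC offset, which are not drawn.

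Of the 12 tested squalene and sterol steps, 12 had a negative value in HP over ULP, 10 in HP over UP and 8 in ULP over UP, with medians of -0.28, -0.51 and -0.16. Beside Fdft1, the lowest value in HP over ULP was that of Nsdhl (-0.40), a sterol dehydrogenase, at 26.2, 27.8 and 34.5 RPKM in HP, 42.4, 35.3 and 36.0 RPKM in ULP and 43.7, 35.4 and 43.3 RPKM in UP libraries. The values nearest to 0 were those of Lbr (-0.01), the lamin B receptor with sterol reductase activity, and of the sterol isomerase Ebp (-0.14). In HP over UP, Ebp was low (-0.70) and Lbr and Hsd17b7 had positive values (0.31 and 0.15). In ULP over UP, Ebp (-0.57) and the sterol reductase Tm7sf2 (-0.48) were lowest and Hsd17b7 (0.42) and Lbr (0.32) highest.

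In HP over UP, 16 of the 20 tested synthesis genes had a negative value, and 0 were called by edgeR and 0 by limma. At an unadjusted p under 0.05 in edgeR, 13 were lower and 2 higher, against 2445 lower and 3575 higher of 14702 over all genes. The median was -0.58, against 0.01 over all genes. The smallest adjusted p was 0.0606, just above the threshold, and it held for several genes at once. DESeq2 called 14 of the 20, 12 lower and 2 higher (Hmgcs1 and Idi1), where it called 24.8% of all genes. Without HP 6, edgeR called 14 of the 20 and 6 of the 8, where it called 38.3% of all genes, and without ULP 4 12 of the 20 and 4 of the 8, where it called 25.9%. Without both, 15 of the 20 and 7 of the 8 were called, 5 of the 7 lower and 2 higher, where 48.5% of all genes were called. Srebf2 was then at -0.76 and Lss at -0.51, and Insig1 was the gene not called.

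In ULP over UP, 13 of the 20 had a negative value with a median of -0.18, against -0.01 over all genes. edgeR, DESeq2 and limma called 0 of them. At an unadjusted p under 0.05 in edgeR, 8 were lower and 2 higher, against 1440 lower and 2550 higher of 14702 over all genes. Without ULP 4, edgeR called 10 of the 20, 8 lower and 2 higher, and 3 of the 8 (Hmgcs1, Idi1 and Fdft1), where it called 19.2% of all genes. Hmgcs1 was then at a log2 fold change of 1.39, Idi1 at 1.52 and Fdft1 at -0.62. In HP over ULP, 0 of the 8 and 0 of the 20 were called in each of the 25 other settings tried, where 0% to 0.894% of all genes were called.

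Of the 12 genes of the SREBP2 factor and its control, 0 were called in any of the 3 comparisons. At an unadjusted p under 0.05 in edgeR, 0 passed in HP over ULP, 2 higher and 3 lower passed in HP over UP, and 3 higher and 0 lower in ULP over UP, against 3575 higher and 2445 lower of 14702 in HP over UP and 2550 higher and 1440 lower in ULP over UP over all genes. Srebf1, which encodes SREBP1, was at 14.4, 12.4 and 18.8 RPKM in HP, 17.6 to 18.8 RPKM in ULP and 19.7, 17.5 and 21.5 RPKM in UP libraries, with log2 fold changes of -0.29 in HP over ULP, -0.49 in HP over UP and -0.20 in ULP over UP, the order kept for the values in threes of the other genes. HP 4 and HP 5 were the lowest libraries, as for Srebf2. Scap, the escort of the SREBPs, had log2 fold changes of 0.04, -0.26 and -0.30. Mbtps2, the site-2 protease, followed Hmgcs1 and Idi1, at 2.69, 2.97 and 1.19 RPKM in HP, 1.04, 2.68 and 2.67 RPKM in ULP and 1.11, 0.826 and 0.694 RPKM in UP libraries, with log2 fold changes of 0.08, 1.27 and 1.19. With the replicate block and the GC offset it was at -0.17, -0.35 and -0.17, so that its direction against UP turned. Insig2, the other INSIG gene, had 0.11, 0.45 and 0.34, and Erlin1, an endoplasmic reticulum protein that binds the SREBP complex, 0.02, 0.38 and 0.36.

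Of 8 SREBP2 targets of sterol uptake and transport, 6 were tested, 6 of the 6 had a negative log2 fold change in HP over ULP (median -0.16) and 0 were called in any comparison. Stard4, a carrier of cholesterol between membranes, had -0.19, 0.45 and 0.65 on the log2 scale and was high in HP 4, HP 5, ULP 5 and ULP 6, at 10.6, 11.7, 12.4 and 13.0 RPKM. With the replicate block and the GC offset it was at -0.29, -0.21 and 0.08. Npc2 and Tmem97, of lysosomal cholesterol handling, had -0.16 and -0.07 in HP over ULP, -0.69 and -0.48 in HP over UP and -0.52 and -0.41 in ULP over UP.

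Of 13 listed fatty acid genes, the usual targets of SREBP1, 11 were tested and 0 were called, with medians of -0.23 in HP over ULP, -0.31 in HP over UP and -0.05 in ULP over UP on the log2 scale. Scd1 and Scd2, which desaturate stearate, had the lowest values in HP over ULP (-0.49 and -0.35), and Fads1 and Scd2 in HP over UP (-0.55 and -0.48). Elovl6, which lengthens palmitate, was an exception, at 4.25, 5.00 and 1.73 RPKM in HP, 1.12, 4.31 and 4.47 RPKM in ULP and 1.22, 1.07 and 0.503 RPKM in UP libraries, with log2 fold changes of 0.13, 1.85 and 1.72 (0.03, 1.29 and 1.26 with the replicate block and the GC offset). It thus took the course of Hmgcs1 and Idi1 over the libraries. Fasn, the fatty acid synthase, was at 68.1, 74.9 and 99.0 RPKM in HP, 110, 92.6 and 85.2 RPKM in ULP and 113, 49.5 and 130 RPKM in UP libraries, and UP 5 was the lowest of the 9.

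Of 12 listed genes of oxysterol formation and of the sterol-sensing LXR factors with their targets, 9 were tested and 0 were called. Ch25h, which makes 25-hydroxycholesterol, an inhibitor of SREBP2 processing, had 0 to 3 counts per library, and Cyp7b1 0 counts in all 9. Abca1, the LXR target that exports cholesterol, had the lowest value of the list in HP over ULP (-0.82 ± 0.33, SE, edgeR adjusted p = 1.00) and the highest in ULP over UP (1.21 ± 0.34, adjusted p = 0.169). In HP over UP it was at 0.39. With the replicate block and the GC offset it was at 0.19, against a median of -0.08 over all genes. With a gene length offset it was at -0.22 (median -0.19), and with GC and length offsets at -0.40 (median -0.28). It was at 4.76, 6.57 and 3.29 RPKM in HP, 5.34, 9.84 and 10.2 RPKM in ULP and 4.65, 2.16 and 3.53 RPKM in UP libraries. ULP 5 and ULP 6 were the high libraries, and HP 5 exceeded ULP 4.

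The other users of mevalonate products split along the axis. Of 10 tested genes 0 were called, and the medians were -0.01 in HP over ULP, -0.29 in HP over UP and -0.26 in ULP over UP. Pggt1b, a subunit of the enzyme that attaches geranylgeranyl groups to proteins, had log2 fold changes of 0.21 in HP over ULP and 1.88 in ULP over UP and was 4.28-fold higher in HP than in UP cells (adjusted p = 0.0606), and Nus1, of dolichol synthesis, 0.20, 1.03 and 0.84. Ggps1, which makes geranylgeranyl diphosphate, had 0.06, 0.85 and 0.79. With the replicate block and the GC offset, Pggt1b was at 0.06, 0.88 and 0.82, Nus1 at 0.07, 0.17 and 0.10, and Ggps1 at -0.13, -0.36 and -0.22, so that the direction of Ggps1 turned in all 3 comparisons. Coq2 of ubiquinone synthesis had -0.05, -0.44 and -0.39 and Dhdds of dolichol synthesis -0.19, -0.51 and -0.32.

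By Pearson correlation of log2 CPM over the 9 libraries, the tested genes outside the lists closest to the mean standardised course of the 8 genes were Nod2 (r = 0.99, Spearman's rho = 0.92), Oas3 (0.98 and 0.90), Acod1 (0.96 and 0.92), Znfx1 (0.96 and 0.80) and Axl (0.96 and 0.82). Their log2 fold changes in HP over ULP were -0.63, -1.47, -0.40, -0.98 and -1.82. The mean course joins genes of opposite course over the libraries, and the correlation is a description over 9 libraries of 3 groups.

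**Figure D4:**
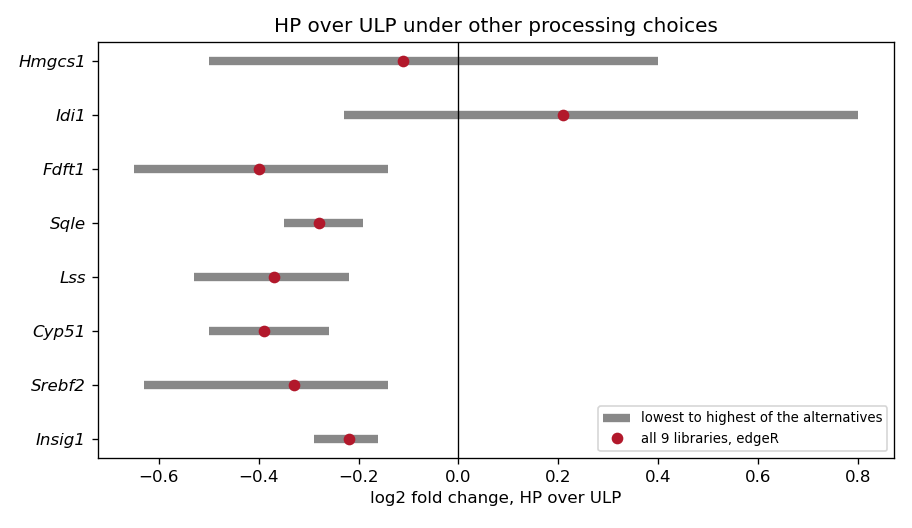
log2 fold change in HP over ULP of the 8 genes in the fit of all 9 libraries (red points) and the range from the lowest to the highest value over 25 other settings (grey bars). The bars of Fdft1, Sqle, Lss, Cyp51, Srebf2 and Insig1 lie below 0 throughout, and those of Hmgcs1 (-0.50 to 0.40) and Idi1 (-0.23 to 0.80) cross it.

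In HP over ULP, Fdft1 (-0.65 to -0.14), Sqle (-0.35 to -0.19), Lss (-0.53 to -0.22), Cyp51 (-0.50 to -0.26), Srebf2 (-0.63 to -0.14) and Insig1 (-0.29 to -0.16) kept a negative log2 fold change in 25 of 25 settings. In these settings 0 of the 8 genes were called, where at most 0.894% of all genes were. Hmgcs1 kept its sign in 21 and Idi1 in 22 of the 25. The smallest adjusted p of any of the 8 in HP over ULP was 0.0687, for Cyp51.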

How the data were processed

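RNA of BV-2 cells was sequenced by the authors from stranded poly(A) libraries in single-end runs, base calls were converted with bcl2fastq 1.8.4, reads were aligned with TopHat2 2.1.0 and reads per gene were counted with featureCounts 1.5.0, by the submitters' processing notes and the supplement. The deposited counts are whole reads per gene without normalization. The deposited RPKM values were scaled by the authors to library total and gene length. The processing notes name GRCm38 as the build, and the supplement names a different one. For the strand setting of counting and the time from restimulation to harvest nothing is given in the sources used here. The deposited RPM table was not used.

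Genes were filtered by filterByExpr, which kept 14702 of 48526 (24933 had no count), scaled by TMM and fitted with edgeR 4.0.16 in R 4.3.3, in 1 quasi-likelihood model of group over all 9 libraries. A gene was called where its p, adjusted by Benjamini-Hochberg over all genes, was under 0.05. The study states no test for these data. Levels are deposited RPKM. Where 2 rows share a gene name, the row with more counts was taken. An exact test of 3 against 3 libraries cannot go below 0.1 and was not run.

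The 8 genes and the gene lists were chosen with earlier results of these data known. Named are the 8 genes, Srebf1, Scap and Ch25h, any listed gene that passed the test, per list and comparison the 2 highest and 2 lowest log2 fold changes among genes with a mean of at least 1 RPKM, of which the text gives a part (some genes are not reported here), and the 5 genes of most like course. Genes named beyond this (Nsdhl, Fasn, Ggps1, Ctsb, Malat1 and Cyp7b1 among them) were chosen after their values were seen. Alternatives were RLE size factors, DESeq2 1.42.0, no filter, only the 6 libraries compared, a replicate block, offsets for gene length or GC content (loess, span 0.3, GC found for 99.1% of genes tested), limma 3.58.1 on log2(RPKM + 0.1) and log2(RPKM + 1), and leaving out libraries. Promoter sequences and gene overlaps are RefSeq's for GRCm38.p6. Figures were drawn with matplotlib.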

Additional observations from a re-analysis of the deposited data

How the results depend on the processing

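In HP over ULP, 0 of the 8 genes and 0 of the 20 synthesis genes were called in all 25 alternatives. Between 0% and 0.894% of all genes were called in them, so few that these counts say nothing about stability. In HP over UP, 0 of 20 synthesis genes and 0 of 8 genes were called in the fit of all libraries, but 14 and 5 with DESeq2 (24.8% of all genes), 10 and 3 with no filter on low counts (8.55%), and 8 and 2 with only the 6 libraries compared (10.6%). Leaving out single libraries or replicate numbers gave 0 to 14 of 20 and 0 to 6 of 8. In ULP over UP, leaving them out gave 0 to 10 of 20 and 0 to 3 of 8. The upper ends came from leaving out HP 6 in HP over UP, where 38.3% of all genes were called, and ULP 4 in ULP over UP, where 19.2% were. Of 3 settings chosen after seeing the data, leaving out both ULP 4 and HP 6 gave 15 and 7 in HP over UP (48.5% of all genes) and 12 and 4 in ULP over UP (38.2%), and leaving out ULP 4, HP 6 and UP 5 gave 17 and 7 in HP over UP and 17 and 6 in ULP over UP, where 63.7% and 54.9% of all genes were called. The cause was not tested.

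Signs turned for a few uncalled values. Insig1 in HP over UP (0.08) was at -0.05 with a gene length offset, -0.05 with the replicate block and that offset, -0.15 with the replicate block and a GC offset, and -0.28 with GC and length offsets together, and ranged from -0.03 to 0.17 over the leave-outs. The medians over all genes in these offset settings, in the same order, were -0.19, -0.19, -0.08 and -0.28. Lss in ULP over UP (-0.08) was at 0.02 with limma under a pseudocount of 0.1 and 0.02 under a pseudocount of 1, and ranged from -0.22 to 0.13 over the leave-outs. Over these leave-outs Hmgcs1 in HP over ULP ranged from -0.50 to 0.40, Idi1 in HP over ULP from -0.23 to 0.80 and Srebf2 in ULP over UP from -0.43 to 0.05. GC content moved Hmgcs1 and Idi1 by over 1.5 times: with the replicate block and the GC offset they were at 0.16 and 0.42 in HP over UP and at 0.40 and 0.40 in ULP over UP, and with GC and length offsets at 0.02 and 0.25 and at 0.28 and 0.24, while Lss and Cyp51 in HP over UP were then at -1.11 and -1.22. With the length offset the median over all genes shifted by -0.20 in HP over UP and by -0.16 in ULP over UP, with GC and length offsets by -0.29 and -0.21. Relative to all genes, the synthesis genes were at medians of -0.56 and -0.23 with the length offset and -0.55 and -0.23 with both.

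No label says that the replicate numbers pair the samples. Deviations of same-numbered libraries from their group means correlated at -0.84 to 0.68. With 3 libraries per group and a first principal component with 79.1% of the variance, these correlations cannot show whether the numbers mark pairs. With a replicate block, 0 of 20 synthesis genes, 0 of 8 genes and 0 of all genes were called in each comparison. Depth did not limit these values, since the lowest count of any of the 8 genes in any library was 851.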

Other observations

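UP 5 was below UP 4 and UP 6 for some lipid genes, and not for lipid genes only. The mitochondrially encoded mt-Nd4 was at 760 RPKM in UP 5, against 1497 in UP 4 and 1513 in UP 6. In contrast, mt-Co2 was at 5272 RPKM in UP 5, against 4357 and 4547. The level in UP 5 was 34.2 RPKM for Srebf2, against 54.6 in UP 4 and 60.7 in UP 6, and 49.5 RPKM for Fasn, against 113 and 130. Other genes of cholesterol synthesis were not low in UP 5: Fdft1 was at 69.0 RPKM, against 65.2 and 70.8, and Pmvk and Fdps were at 76.1 and 29.9 RPKM, against 63.5 and 22.1 in UP 4 and 63.4 and 24.4 in UP 6. These genes were chosen after their values were seen, and no cause was tested.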
